A study of Mus musculus with 24 samples.

Results

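Liver RNA of mice kept on a cottonseed oil-enriched diet (CSO) was compared with liver RNA of mice kept on chow. Members were the libraries labelled CSO and chow, 6 of each, and they are 12 of the 23 libraries in the count table. All mice were male C57BL/6, a common inbred laboratory strain, with the genotype given as WT, and all were on their diet for 6 weeks. The remaining libraries come from mice on an olive oil-enriched diet (OO, 6 libraries) and a safflower oil-enriched diet (SFO, 5 libraries), and they were used to estimate the spread and to set CSO against other oils. The sources used here give neither the age of the mice, nor the hour of collection, nor the make-up of any diet, so whatever else sets chow apart from the CSO diet cannot be told apart from the oil. Libraries were made by QuantSeq, which reads 1 tag near the 3′ end of each messenger RNA, and levels below are given as CPM, in which counts are divided by the composition-corrected size of their library. The labels say only that the samples are separate, and a p-value therefore weighs a difference against a spread that may be technical.

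Cottonseed oil is rich in linoleic acid, a polyunsaturated fatty acid that mice cannot make and that FADS2, ELOVL5 and FADS1 lengthen and desaturate to arachidonic acid. Dietary fatty acids reach hepatocytes in lipoproteins, bind the nuclear receptor PPARα and are burned in peroxisomes and mitochondria, while the factors SREBP1 and SREBP2 set the synthesis of fatty acids and sterols. The liver also clears drugs and plant compounds with cytochrome P450s, glutathione transferases and glucuronosyltransferases, many of them under the receptors PXR and CAR and the factor NRF2.

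Libraries held 6248412 to 14930305 counts in chow and 8032081 to 13973380 counts in CSO. The 14 hepatocyte markers, among them Alb, Apob and Ttr, summed to between 138367 and 181611 CPM in chow and between 134298 and 185062 CPM in CSO, with none at 0 in any group. A set of 4 libraries stood apart by skeletal muscle transcripts: the summed level of the 34 muscle markers in the table was 3115, 5822 and 1387 CPM in Chow 3, Chow 4 and Chow 5 and 2724 CPM in CSO 1, against 28.2 to 251 CPM in the other 8. In the same 4 libraries Acta1, the actin of skeletal muscle, lay at 461, 886, 186 and 313 CPM, against at most 27.6 CPM elsewhere. All 30 tested muscle markers had a negative log2 fold change (median -1.81, and -0.55 without the 4 libraries), and none passed the test. A clock score, the mean log2 CPM of Per2, Per3, Tef, Dbp and Ciart less that of Clock, Arntl, Npas2 and Nfil3, ran from -1.55 to 2.75 in chow and from 2.90 to 4.82 in CSO, so the groups did not overlap. Their part in the results was not tested, and values without the 4 libraries, or with the score as a term of the fit, are given only in places.

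**Figure D1:**
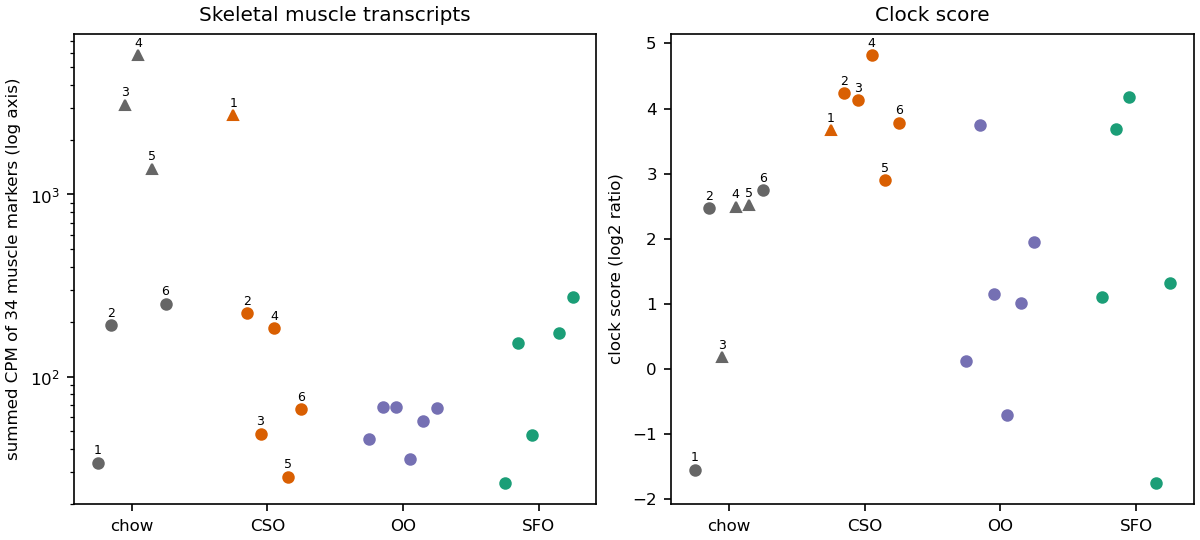
Left, the summed CPM of 34 skeletal muscle markers in each library (log axis), and right, the clock score of each library (log2 ratio), by diet; points are libraries, numbers are replicate numbers of chow and CSO, and triangles are the 4 libraries with muscle transcripts. Chow 3, Chow 4, Chow 5 and CSO 1 lie between 1387 and 5822 CPM on the left, and on the right the lowest CSO library (2.90) lies just above the highest chow library (2.75).

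Of 11971 tested genes, 49 differed between CSO and chow, a background of 0.409%, with 25 higher in CSO (0.209%) and 24 lower (0.200%). The size of the called differences ran from 0.49 to 2.77 on the log2 scale, and the called genes were abundant, with a median of the mean log2 CPM of 8.33 against 4.16 for all tested genes. The median standard error was 0.52 for all tested genes and 0.18 for the called ones. A log2 fold change of at least 1 in size was seen in 1426 genes, and 17 of them were called. In 35 of the 49 genes the CSO and chow libraries did not overlap (18 with CSO above, 17 below), and over all tested genes this held for 172 (1.44%), with CSO above in 103 (0.860%) and below in 69 (0.576%). The OO libraries were more spread than the others (median SD of log2 CPM per gene 1.09, against 0.636 in chow and 0.595 in CSO), and they share the estimate of the spread. Fitted with the 12 CSO and chow libraries only, 198 of 10956 genes (1.81%) were called, 109 higher (0.995%) and 89 lower (0.812%), and these held all 49. The other 149 had the same sign in the fit of all libraries.

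**Figure D2:**
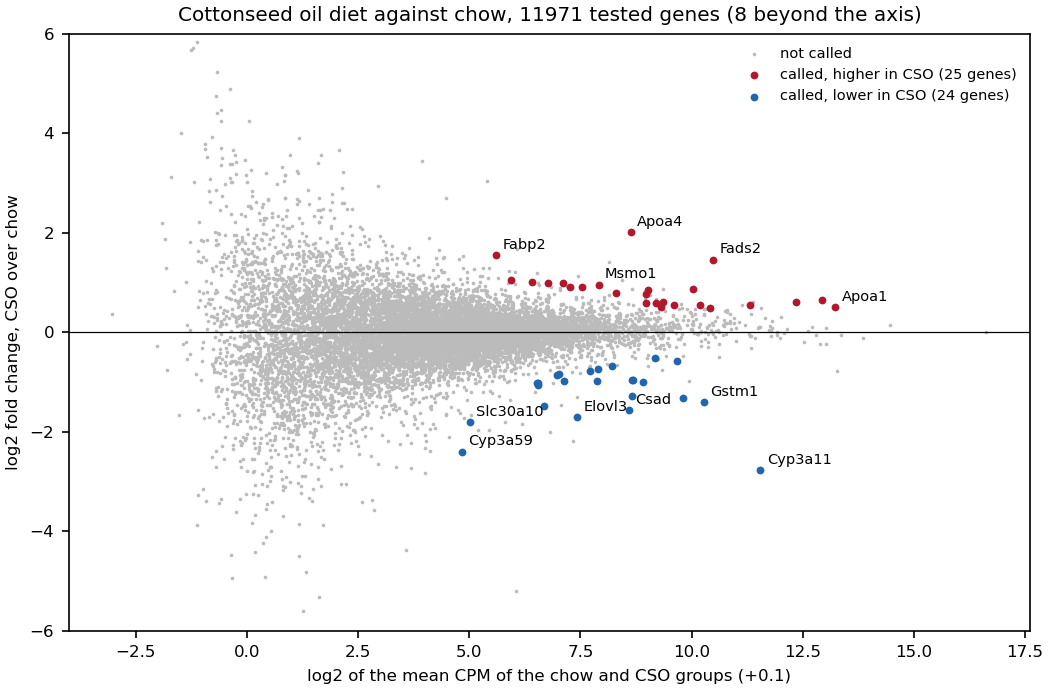
Each point is 1 of 11971 tested genes, with the log2 of its mean CPM over the chow and CSO groups on the x axis and the log2 fold change of CSO over chow on the y axis; red and blue points are the 25 called higher and 24 called lower. Called genes sit to the right of the plot, from Cyp3a59 and Slc30a10 on the left to Apoa1 on the far right, and the widest scatter on the left holds none.

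Without the 4 libraries with muscle transcripts all 49 genes kept their sign, with a log2 fold change 0.781 to 1.26 times that of all libraries, and none of the 49 is a muscle marker. The number of called genes was then 14 (0.113% of 12371), and 13 of them were also among the 49. These 13 include Apoa1, Apoa4, Ces2a, Csad, Cyp2c29, Cyp3a11, Fads1, Fads2, Gclc, Gstm1, Slc30a10 and Slco2a1. Most of the 4 libraries left out are chow, and standard errors were larger without them. That of Apoa4 was 0.40 against 0.28 with all libraries, and that of Fads2 was 0.20 against 0.16. Whether the smaller groups or the muscle transcripts lowered the number of called genes was not tested. With only CSO and chow libraries, again without those 4, 37 of the 49 were called. The 12 that missed the threshold there were Acsl4, Cpt1a, Creg1, Cyp2c68, Cyp2e1, Elovl3, Gldc, Gpt2, Igfbp4, Nr1d1, Rnase4 and Ugt2b1. With the clock score as a term of the fit 23 genes were called, 17 of them among the 49. The score was made from the same counts, and it did not overlap between CSO and chow. This fit therefore cannot tell its part from that of the diet. Leaving out Chow 1, 2, 3 or 4 gave 26, 29, 25 and 29 called genes, and leaving out CSO 1, 3, 4, 5 or 6 gave 31, 28, 23, 30 and 22. With each of the 12 libraries left out in turn, 21 of the 49 passed every time: those 13 genes and Aldh3a2, Cyp3a25, Cyp3a59, Ephx1, Gbe1, Mat1a, Msmo1 and Ugdh. Of these 21, Aldh3a2, Apoa1, Mat1a, Msmo1, Slc30a10, Slco2a1 and Ugdh were not called with the clock score as a term.

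The desaturases on the path from linoleic to arachidonic acid were higher in CSO than in chow. Fads2, the Δ6 desaturase, lay at 519, 728 and 1102 CPM (lowest, median and highest of 6) in chow and at 1453, 2205 and 2533 CPM in CSO. Every CSO library lay above every chow library, and the lowest of them was CSO 1. The log2 fold change was 1.46 ± 0.16 (SE; adjusted p = 6.78e-08), or 2.75-fold. Fads1, the Δ5 desaturase encoded beside it, lay at 585, 689 and 992 CPM in chow and at 1008, 1320.4 and 1782 CPM in CSO, again without overlap though with the extremes of the groups close together. It rose by 0.87 ± 0.13 (adjusted p = 7.11e-05).

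Among the 12 tested desaturases and elongases, 2 rose, 1 fell and 9 did not pass, with a median log2 fold change of 0.31 against -0.02 over all tested genes. Elovl3, which elongates saturated and monounsaturated chains, was the member that fell, from 106, 238 and 464 CPM in chow to 38.8, 82.5 and 117 CPM in CSO. The groups overlapped at their edges, and the log2 fold change was -1.71 ± 0.36 (adjusted p = 0.0339). Elovl5, which lengthens the product of FADS2 and was named after its values were seen, had a log2 fold change of 0.48 ± 0.13 that passed only with the 12 libraries (adjusted p = 0.117, and 0.0104 with 12 libraries). Scd1, the Δ9 desaturase that makes oleic acid, lay at 7697, 8595 and 10279.8 CPM in chow and at 5342, 7101 and 11983 CPM in CSO. Its CSO libraries thus spread below and above all of chow, and its log2 fold change of -0.24 ± 0.25 did not pass (adjusted p = 1.0).

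None of the 16 tested genes of fatty acid synthesis passed (median 0.31). Srebf1, which encodes the SREBP1 factors, came closest, at 93.7, 169 and 193 CPM in chow and 208, 321 and 391 CPM in CSO. The groups did not overlap, and the log2 fold change of 0.93 ± 0.23 had an adjusted p of 0.0616, and of 0.000628 with the 12 libraries. Thrsp, a lipogenic gene known as Spot 14, had a log2 fold change of 1.41 ± 0.42 and likewise passed only with the 12 libraries (adjusted p = 0.284 and 0.00577). Fasn, the fatty acid synthase, and Acaca, the cytosolic acetyl-CoA carboxylase, had log2 fold changes of 0.41 ± 0.28 and 0.02 ± 0.29 (adjusted p = 1.0 for both).

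Genes of cholesterol synthesis had a positive log2 fold change in 20 of 21 tested members, with a median of 0.63. One member, Msmo1, the sterol C4-methyl oxidase, passed: it lay at 139.6, 155 and 210.0 CPM in chow and at 266, 328 and 357 CPM in CSO, without overlap. Its log2 fold change was 0.96 ± 0.18 (adjusted p = 0.00152). With the 12 libraries 10 of the 21 passed, all higher in CSO, among them Cyp51, Dhcr7, Fdft1, Fdps, Hmgcs1, Hsd17b7, Lss, Msmo1 and Sqle. Hmgcs1, an HMG-CoA synthase, named after its values were seen, ran from 303 to 560.0 CPM in chow and from 531 to 986 CPM in CSO (log2 fold change 0.67 ± 0.21, adjusted p = 0.300, and 0.0402 with 12 libraries).

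A sterol regulatory element, the short sequence that SREBPs bind, was searched as TCACNCCAC on both strands in the 300 bases around each start in RefSeq's GRCm38.p6 promoters (250 before to 50 after). It was found in 1.53% of the promoters of all tested genes and in 1 of 16 promoters of the cholesterol list, that of Hmgcs1 (chr13:119690202-119690234, gene on the plus strand, element at -137), shown with the element in capitals.
Hmgcs1: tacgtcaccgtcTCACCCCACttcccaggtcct
A match is a description of the letters, and elements with other letters were not searched.

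The genes that control sterol synthesis did not pass. Srebf2 (SREBP2) had a log2 fold change of 0.41 ± 0.26 (adjusted p = 1.0). Insig2, which holds the SREBPs back in the endoplasmic reticulum, lay at 169, 207 and 311 CPM in chow and at 82.3, 131 and 177 CPM in CSO. Its log2 fold change of -0.82 ± 0.22 passed only with the 12 libraries (adjusted p = 0.117 and 0.00503). None of 23 tested genes of bile acid synthesis and transport passed (median 0.05). Cyp7a1, the rate-limiting enzyme of bile acid synthesis, had medians of 231 CPM in chow and 228 CPM in CSO (log2 fold change 0.03 ± 0.47, adjusted p = 1.0), and Abcb11, the bile salt export pump, a log2 fold change of -0.53 ± 0.14 (adjusted p = 0.0841, and 0.00568 with 12 libraries).

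Among apolipoproteins the change was large for Apoa4, a protein of triglyceride-rich lipoproteins. It lay at 127, 150.4 and 202 CPM in chow and at 509.7, 643 and 746 CPM in CSO. The gap between the groups was wider than the range of either, and the log2 fold change was 2.02 ± 0.28 (adjusted p = 0.000393), or 4.06-fold. Apoa1, the main protein of high-density lipoprotein, lay at 6759.8, 7915 and 8993 CPM in chow and at 8654, 11940.2 and 13334 CPM in CSO. It rose by 0.50 ± 0.10 (adjusted p = 0.00458), with the lowest CSO library inside the chow range. These were the 2 of 25 tested lipoprotein genes that passed, and the list's median was 0.14.

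Of 17 tested genes of fatty acid uptake, binding and activation, 2 rose and none fell (median 0.32). Fabp2, a fatty acid binding protein best known from the small intestine, lay at 13, 25.0 and 36.3 CPM in chow and at 35.4, 74.0 and 133 CPM in CSO, with 1 CSO library inside the chow range. Its log2 fold change was 1.55 ± 0.36 (adjusted p = 0.0339). Of the 5 intestinal epithelium markers in the table, Lct was at 0 in every chow and CSO library, Muc2 was at 0 in chow and reached 10.6 CPM in CSO, and Anpep, also made by hepatocytes, had medians of 173 CPM in chow and 219 CPM in CSO. Lgals4 had medians of 0.765 CPM in chow and 1.20 CPM in CSO and reached 7.51 CPM in chow and 2.59 CPM in CSO. The sum of these markers without Fabp2 was 157 to 204 CPM in chow and 191 to 259 CPM in CSO. Most of it was Anpep, which alone ran from 156 to 196 CPM in chow and from 191 to 256 CPM in CSO. Acsl4, the acyl-CoA synthetase that prefers arachidonic acid, lay at 57.4, 68.6 and 110.4 CPM in chow and at 100.5, 145 and 186 CPM in CSO (log2 fold change 1.0 ± 0.24, adjusted p = 0.0428).

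PPARα targets passed in 3 of 28 tested members, all of them higher, with a median of 0.22, and 2 of the 3 are described here. Aldh3a2, the fatty aldehyde dehydrogenase, lay at 312, 379 and 440.1 CPM in chow and at 537, 665 and 766 CPM in CSO, without overlap (log2 fold change 0.84 ± 0.17, adjusted p = 0.00482). Cpt1a, the gate for long-chain fatty acids into mitochondria, lay at 473, 594 and 879.8 CPM in chow and at 800.2, 848 and 1137 CPM in CSO (0.55 ± 0.14, adjusted p = 0.0428), with Chow 6 inside the CSO range. Cpt1a was also the 1 of 18 genes of mitochondrial fatty acid oxidation that passed (median 0.28), and with the 12 libraries Acsl1, Eci1 and Hadh passed as well.

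Other genes tied to the same receptor did not pass with all libraries. Ppara itself had medians of 460.1 CPM in chow and 558 CPM in CSO (log2 fold change 0.28 ± 0.13, adjusted p = 0.921). Angptl4, an inhibitor of lipoprotein lipase, had a log2 fold change of -0.12 ± 0.46 and Fgf21, a fasting hormone, of -0.39 ± 1.07, both with an adjusted p of 1.0, and both had the opposite sign without the 4 libraries (0.15 and 0.02). Cd36, a fatty acid carrier, had a log2 fold change of 0.16 ± 0.36 (adjusted p = 1.0). Vnn1, pantetheinase, chosen after its values were seen, had a log2 fold change of 0.96 ± 0.28 that passed with the 12 libraries only (adjusted p = 0.166 and 0.0267).

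Among called genes the 2 largest falls were in Cyp3a genes, whose enzymes clear foreign compounds, followed by Slc30a10, Elovl3, Csad and Slco2a1. Cyp3a11, the main mouse counterpart of human CYP3A4 and a PXR target, lay at 4188, 5049 and 6219 CPM in chow and at 544, 757 and 988 CPM in CSO. No CSO library reached the chow range, and the log2 fold change was -2.77 ± 0.28 (adjusted p = 1.19e-05), a 6.81-fold fall. Further Cyp3a genes fell: Cyp3a59 from 8.88, 50.3 and 72.9 CPM to 3.85, 8.90 and 13 CPM (-2.40 ± 0.50, adjusted p = 0.00871), and Cyp3a25 from 510.0, 603 and 815 CPM to 254, 300.3 and 397 CPM (-0.99 ± 0.16, adjusted p = 0.000274). Chow 3, at 8.88 CPM, was the chow library of Cyp3a59 that lay inside the CSO range. Not every Cyp3a gene fell: Cyp3a13, chosen after its values were seen, had a log2 fold change of 0.43 ± 0.22 (adjusted p = 0.970). The genes of this family share much sequence, so reads may have been split among them and their separate counts are uncertain; the same holds for the Cyp2c, Cyp2d, Gstm, Ugt2b and Ces genes below.

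Cyp2c29 lay at 1113, 1261 and 1453 CPM in chow and at 386, 526 and 619 CPM in CSO, without overlap (log2 fold change -1.32 ± 0.15, adjusted p = 6.78e-08). Cyp2c68 lay at 95.6, 122 and 169 CPM in chow and at 39.5, 50.2 and 121 CPM in CSO, the highest of these being CSO 5 (-1.05 ± 0.26, adjusted p = 0.0428). In the other direction, Cyp2d40 lay at 19.4, 43.6 and 55.5 CPM in chow and at 63.2, 80.2 and 116 CPM in CSO (1.05 ± 0.26, adjusted p = 0.0428). Cyp2e1, which oxidises ethanol and small solvents, was higher too, at 4516, 6132 and 7467 CPM in chow and 6111, 9567 and 11422 CPM in CSO (0.64 ± 0.14, adjusted p = 0.0331), with overlap. Over the 40 tested P450s of drug and steroid metabolism, then, 5 fell, 2 rose and 33 did not pass, with a median of -0.31. With the 12 libraries 10 fell and 3 rose, and Cyp1a2, Cyp2c55, Cyp2f2, Cyp3a16 and Cyp3a44 were the added falls and Cyp2d26 the added rise.

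Por, the reductase that feeds electrons to every microsomal P450, moved opposite to Cyp3a11. It lay at 241, 377 and 478 CPM in chow and at 584, 617 and 703 CPM in CSO, without overlap (log2 fold change 0.77 ± 0.19, adjusted p = 0.0428). None of the 11 drug-sensing receptors and partners passed (median -0.04). Nr1i2, which encodes PXR, and Nr1i3, which encodes CAR, both chosen after their values were seen, had log2 fold changes of -0.04 ± 0.25 and 0.26 ± 0.50 (adjusted p = 1.0 for both).

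**Figure D3:**
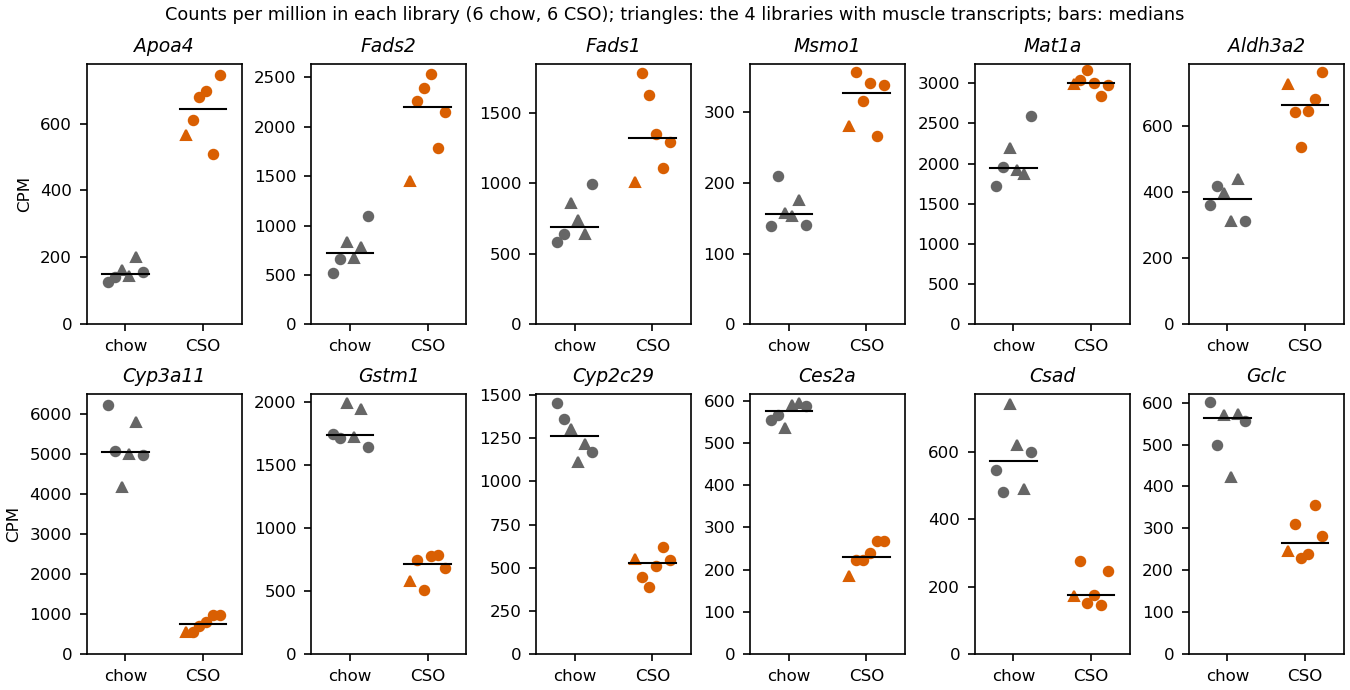
CPM of 12 called genes in each of the 6 chow and 6 CSO libraries, on linear axes that start at 0; black bars are medians and triangles are the 4 libraries with muscle transcripts. The upper row holds genes higher in CSO and the lower row genes lower in CSO, and in none of the 12 do the groups overlap.

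Single conjugating enzymes and esterases fell too. Gstm1, a glutathione transferase of the mu class, had the smallest p of all: it lay at 1643, 1734 and 1988 CPM in chow and at 511, 712 and 785 CPM in CSO. The groups were far apart, and the log2 fold change was -1.40 ± 0.12 (adjusted p = 9.96e-12), a 2.64-fold fall. Of 19 tested glutathione transferases it was the 1 that passed (median -0.46), and Gstm4 and Gstp1 passed with the 12 libraries. Ces2a, a carboxylesterase that hydrolyses drugs and acylglycerols, lay at 536, 576 and 595 CPM in chow and at 186, 231 and 268 CPM in CSO (-1.29 ± 0.14, adjusted p = 6.78e-08), the 1 of 15 carboxylesterases that passed. The list's median was 0.07.

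Of 25 glucuronosyl- and sulphotransferases and their supply, 3 fell, none rose and 22 did not pass (median -0.01). Ugdh, which makes UDP-glucuronic acid, lay at 224, 323 and 352 CPM in chow and at 112, 163 and 174 CPM in CSO, without overlap (log2 fold change -0.98 ± 0.19, adjusted p = 0.00247). Ugt2b5 lay at 835, 939 and 1201 CPM in chow and at 563, 657 and 779 CPM in CSO (-0.57 ± 0.13, adjusted p = 0.0287). Ugt2b1 lay at 592, 680.3 and 806 CPM in chow and at 384, 482 and 561 CPM in CSO (-0.51 ± 0.12, adjusted p = 0.0428). In these 3 genes no CSO library reached the chow range. Ugt2b1 and Elovl3 were also the 2 that fell among 24 growth hormone and male-biased liver genes, where none rose (median 0.02).

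NRF2 targets, which supply glutathione and detoxify electrophiles, had a negative log2 fold change in 15 of 20 tested members (median -0.45), and 3 fell. Besides Ugdh these were Gclc and Ephx1. Gclc, the catalytic subunit of the enzyme that limits glutathione synthesis, lay at 423, 564 and 602 CPM in chow and at 230.4, 264 and 356 CPM in CSO (-0.95 ± 0.15, adjusted p = 7.11e-05). Ephx1, microsomal epoxide hydrolase, lay at 443, 553 and 644 CPM in chow and at 227, 279 and 359 CPM in CSO (-0.96 ± 0.17, adjusted p = 0.000887). Neither had overlapping groups. Gclm, the modifier subunit that pairs with GCLC, named after its values were seen, had a log2 fold change of -0.49 ± 0.16 that passed with the 12 libraries (adjusted p = 0.342 and 0.0380), and Nqo1, a common reporter of NRF2, chosen after its values were seen, was low at medians of 10.3 CPM in chow and 3.62 CPM in CSO and did not pass (adjusted p = 1.0). Nfe2l2, which encodes NRF2 and was likewise chosen after its values were seen, had a log2 fold change of -0.39 ± 0.22 (adjusted p = 1.0).

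Since these genes are grouped by 1 binding sequence, it was searched. The core of the antioxidant response element, which NRF2 binds with a small MAF protein, was taken as TGACNNNGC, read as GCNNNGTCA on the other strand. It stands in 16.8% of the promoters of all tested genes, in 8 of 17 promoters of the NRF2 list (47.1%), and in 2 of 42 promoters of called genes, Ugdh and Slc16a12. Both copies of Ugdh (chr5:65435954-65435986 and chr5:65435916-65435948, gene on the minus strand, cores at -132 and -94), the copy of Gclm (chr3:122245411-122245443, plus strand, -134) and that of Txnrd1, thioredoxin reductase (chr10:82859102-82859134, plus strand, -92), are shown 5′ to 3′ along the gene, with the core in capitals.
Ugdh at -132: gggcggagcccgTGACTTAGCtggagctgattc
Ugdh at -94: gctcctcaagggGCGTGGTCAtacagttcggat
Gclm at -134: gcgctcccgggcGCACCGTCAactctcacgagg
Txnrd1 at -92: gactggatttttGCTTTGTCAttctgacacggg
The share for the NRF2 list describes how that list was drawn up as much as these libraries, and nothing follows from it about binding.

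Taurine and glutathione draw on the same cysteine. Csad, the decarboxylase that limits taurine synthesis, lay at 481, 573 and 741 CPM in chow and at 145, 174 and 276 CPM in CSO. No library of the 2 groups overlapped, and the log2 fold change was -1.57 ± 0.19 (adjusted p = 1.88e-07). With Gclc it made up the 2 of 22 tested genes of cysteine, taurine and glutathione that fell, none rose, and the median was -0.08. Upstream, Mat1a, which makes S-adenosylmethionine in hepatocytes, lay at 1726, 1940.0 and 2599 CPM in chow and at 2847, 3000.3 and 3165 CPM in CSO (0.55 ± 0.11, adjusted p = 0.00465), the 1 of 23 methionine and methyl group genes that passed (median 0.16).

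Of 31 genes of gluconeogenesis and glycolysis, 2 rose and none fell (median 0.06). Pcx, pyruvate carboxylase, lay at 460.3, 522 and 569.7 CPM in chow and at 636, 779 and 899 CPM in CSO (log2 fold change 0.60 ± 0.14, adjusted p = 0.0287). Gpt2, the mitochondrial alanine transaminase that delivers pyruvate to it, lay at 436, 541 and 605 CPM in chow and at 662, 745 and 828 CPM in CSO (0.51 ± 0.13, adjusted p = 0.0428). In both genes every CSO library exceeded every chow library. The enzymes at the ends of the pathway did not pass: Pck1 had a log2 fold change of 0.13 ± 0.20 and G6pc of -0.39 ± 0.45 (adjusted p = 1.0 for both). Gbe1, the glycogen branching enzyme, was the 1 of 16 glycogen genes that passed, at 64.0, 94.8 and 119 CPM in chow and 139.6, 183 and 236 CPM in CSO (0.99 ± 0.20, adjusted p = 0.00601).

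In the list for amino acid catabolism and the urea cycle 1 of 45 tested members rose and 1 fell (median 0.07). Gldc, the decarboxylase of the glycine cleavage system, lay at 129, 158 and 233 CPM in chow and at 59.2, 87.9 and 148 CPM in CSO (log2 fold change -0.83 ± 0.20, adjusted p = 0.0339), with overlap. The member that rose was Gulo, which is the last enzyme of vitamin C synthesis in mice rather than one of amino acid breakdown. It rose from 349, 401 and 439 CPM to 504, 612 and 688 CPM without overlap (0.58 ± 0.14, adjusted p = 0.0356). Rbp4, the plasma carrier of retinol, lay at 841, 952 and 1043 CPM in chow and at 1008, 1467 and 1666 CPM in CSO (0.55 ± 0.12, adjusted p = 0.0145), and it and Aldh3a2 were the 2 of 26 retinoid and aldehyde genes that passed.

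Transporters moved in both directions. Slc30a10, which exports manganese, was the 1 of 21 metal handling genes that passed: it lay at 36.6, 49.8 and 64.5 CPM in chow and at 11.2, 14.6 and 18.6 CPM in CSO. The groups did not overlap, and it fell by 1.80 ± 0.33 on the log2 scale (adjusted p = 0.00152). Slco2a1, a prostaglandin carrier, lay at 71.9, 141 and 238 CPM in chow and at 31.8, 53.3 and 82.7 CPM in CSO, overlapping (log2 fold change -1.48 ± 0.29, adjusted p = 0.00465). Slc16a12, a carrier of creatine, rose without overlap from 40.4, 56.0 and 69.0 CPM to 86.8, 116 and 135 CPM (1.01 ± 0.24, adjusted p = 0.0333). These were the 1 fall and the 1 rise among 30 organic ion and monocarboxylate carriers (median 0.10).

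Of the 18 tested core clock genes 1 passed, while the clock score, which was not tested, was higher in every CSO library than in any chow library by a narrow margin. Nr1d1, which encodes the repressor REV-ERBα, was the 1 of 12 tested evening-phase clock genes that passed. It lay at 90.3, 110.0 and 185 CPM in chow and at 46.0, 57.2 and 91.9 CPM in CSO, with overlap at the edge (log2 fold change -1.01 ± 0.24, adjusted p = 0.0339). Per2, a repressor that peaks later, went the other way: it lay at 5.92, 10.6 and 26.6 CPM in chow and at 28.4, 42.9 and 59.2 CPM in CSO. Its groups did not overlap, and the log2 fold change of 1.54 ± 0.43 passed with the 12 libraries (adjusted p = 0.117 and 0.00520). Tef, a PAR-domain activator chosen after its values were seen, ran from 70.4 to 179 CPM in chow and from 187 to 271 CPM in CSO (0.70 ± 0.38, adjusted p = 1.0, and 0.00955 with 12 libraries). None of 6 tested morning-phase genes passed (median -0.13), and Clock had a log2 fold change of -0.64 ± 0.29 (adjusted p = 0.836). Of 17 clock output genes Por rose and Elovl3 fell, and the median was 0.58. With the clock score as a term of the fit neither Nr1d1 nor Por nor Elovl3 was called, and their log2 fold changes were then -1.09 ± 0.27, 0.43 ± 0.19 and -1.07 ± 0.31 (adjusted p = 0.0872, 0.797 and 0.293). As above, that fit cannot tell the score apart from the diet.

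Sequences read by the clock were searched in the same promoters. The E-box CACGTG, bound by CLOCK and BMAL1 and the same on both strands, stands in 11.8% of promoters of tested genes, in 4 of 10 promoters of the evening-phase list (40%) and in 3 of 42 promoters of called genes (7.14%), those of Aldh3a2, Pcx and Slc16a12. The D-box, searched as TTANGTAA and TTACNTAA and bound by TEF and its relatives, stands in 1.96% of all promoters and in 3 of 42 of called genes, Camk1d, Slc16a12 and Ugt2b1. Shown are the boxes of Tef (chr15:81802534-81802563, plus strand), of Aldh3a2 (chr11:61267199-61267228, minus strand) and of Slc16a12 (E-box chr19:34747551-34747578 and D-box chr19:34747385-34747416, minus strand), with the motif in capitals.
Tef E-box at -127: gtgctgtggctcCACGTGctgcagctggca
Aldh3a2 E-box at -30: gggcctcatagtCACGTGcagcagctcagc
Slc16a12 E-box at -240: ttgcaagatgCACGTGcaggagactttg
Slc16a12 D-box at -76: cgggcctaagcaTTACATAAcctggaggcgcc
The shares were not tested, and the counts behind them are small.

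The remaining called genes belong to other functions. Serpina3n, a secreted protease inhibitor of the acute phase, lay at 166, 246 and 258 CPM in chow and at 307, 428 and 457 CPM in CSO, without overlap (log2 fold change 0.78 ± 0.18, adjusted p = 0.0331), and was the 1 of 29 acute phase genes that passed (median 0.23). Enpp2, autotaxin, which makes lysophosphatidic acid, rose from 76.1, 105 and 134 CPM to 127, 201 and 245 CPM (0.91 ± 0.19, adjusted p = 0.0115). Hsd17b10, a mitochondrial dehydrogenase, rose from 87.0, 135 and 153 CPM to 166, 223 and 359 CPM (0.92 ± 0.20, adjusted p = 0.0121). Of these 3, Enpp2 alone had overlapping groups. Igfbp4, which binds insulin-like growth factors, rose by 0.49 ± 0.12 (adjusted p = 0.0375) and Rnase4, a secreted ribonuclease, by 0.59 ± 0.14 (adjusted p = 0.0466), both without overlap.

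Among the remaining falls 3 concern mitochondria or protein turnover. Clpx, the unfoldase of the mitochondrial ClpXP protease, lay at 129, 163 and 289 CPM in chow and at 75.5, 94.8 and 114 CPM in CSO (log2 fold change -0.98 ± 0.22, adjusted p = 0.0186). Coq8a, an atypical kinase of coenzyme Q synthesis, lay at 239.6, 270.1 and 403 CPM in chow and at 126, 179 and 221 CPM in CSO (-0.74 ± 0.18, adjusted p = 0.0339), the 1 of 13 genes of that list that passed. Psmd11, a subunit of the proteasome lid, had a log2 fold change of -0.86 ± 0.21 (adjusted p = 0.0428). In none of the 3 did the groups overlap. Camk1d, a calcium-dependent kinase, fell by 1.02 ± 0.23 (adjusted p = 0.0238), Larp4b, an RNA-binding protein, by 0.78 ± 0.19 (adjusted p = 0.0403), and Creg1, a lysosomal glycoprotein, by 0.67 ± 0.16 (adjusted p = 0.0428).

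Several lists held no member that was called with all libraries. None of 31 interferon response genes (median 0.43), 26 endoplasmic reticulum folding genes (0.16), 18 genes of the integrated stress response (-0.40), 13 heat shock genes (0.19) or 12 immediate early genes (-0.18) passed. The same held for 22 genes of triglyceride synthesis and lipid droplets (0.16) and 14 proliferation genes (0.75). Markers of other liver cells did not pass either, among them 19 of Kupffer cells and macrophages (-0.11), 16 of endothelial cells (-0.33) and 17 of stellate cells and matrix (-0.09). In the fit of 12 libraries 1 gene of the integrated stress response was called lower. There, 1 gene of triglyceride synthesis and lipid droplets and 1 marker of Kupffer cells and macrophages were called higher. Summed endothelial markers lay at 460.2 to 581 CPM in chow and 256 to 517 CPM in CSO, and in bulk samples fewer cells of a type and less RNA per cell cannot be told apart. Cfd, adipsin, a serine protease secreted by fat cells, lay at 0.281, 4.21 and 29.0 CPM in chow and at 22, 70.4 and 160.3 CPM in CSO, a wide spread with which a log2 fold change of 3.05 ± 1.05 did not pass (adjusted p = 0.495, and 0.190 with 12 libraries). The other 4 adipocyte markers in the table included 2 at 0 in every CSO library. Of the 3 tested adipocyte markers, Cfd among them, 1 had a positive and 2 a negative log2 fold change (median -0.31). Summed adipocyte markers lay at 2043 to 3471 CPM in chow (median 2882) and at 1953 to 2803 CPM in CSO (median 2335). Cfd was a small part of these sums. Whether the rest came from fat cells or from hepatocytes was not tested, so the sums do not measure fat tissue.

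**Figure D4:**
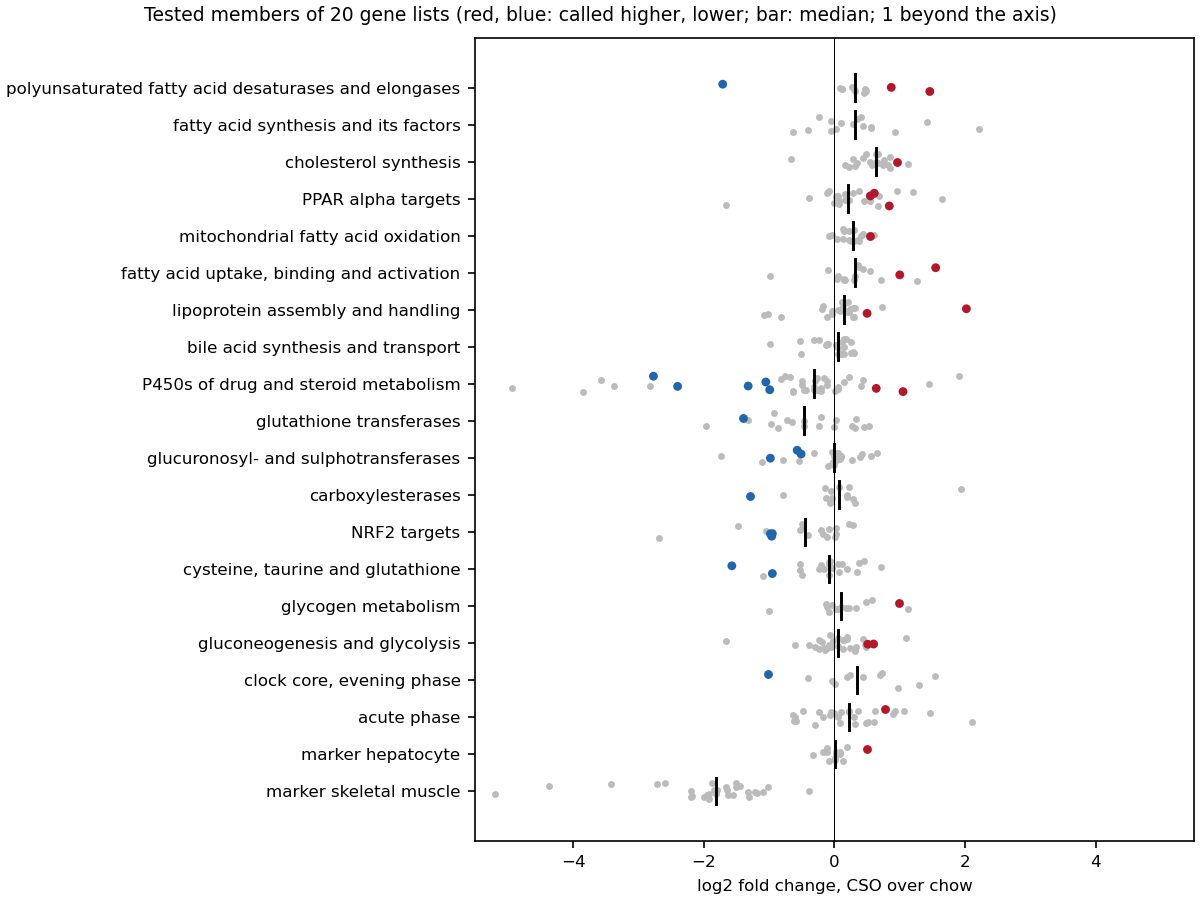
Log2 fold change of CSO over chow (x axis) for the tested members of 20 gene lists (rows); grey points did not pass, red and blue points were called higher and lower, black bars are the list medians, and vertical scatter within a row carries no value. Cholesterol synthesis lies to the right of 0 in 20 of 21 members (median 0.63), NRF2 targets lie to the left in 15 of 20 (median -0.45), and skeletal muscle markers lie to the left throughout (median -1.81).

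With the spread taken from the 12 CSO and chow libraries alone, less abundant genes came through, of which the 12 largest rises and falls were looked at. Higher in CSO, with groups that did not overlap, was Osbpl3, an oxysterol-binding protein relative, at 0.781, 4.86 and 12.9 CPM in chow and 17.5, 35.0 and 61.8 CPM in CSO (log2 fold change 2.7 ± 0.85 with all libraries, adjusted p = 0.288, and 0.000486 with 12). Mfsd2a, which carries lysophosphatidylcholine with docosahexaenoic acid, had a log2 fold change of 1.20 ± 0.44 (adjusted p = 0.537 and 0.0214), and Slc10a2, the apical bile acid carrier, of 1.52 ± 0.38 (adjusted p = 0.0513 and 0.0159). Acsl3, another acyl-CoA synthetase, had one of 1.27 ± 0.34 (adjusted p = 0.0841 and 0.00725). Further rises were Alyref2, Hccs, Nmi, Plscr2 and Nrep, besides Per2 and Thrsp above.

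Among the 12 falls of that fit, Cyp3a44 went the way of the Cyp3a genes called lower above. It lay at 16.4, 28.7 and 39.3 CPM in chow and at 1.26, 4.04 and 5.68 CPM in CSO, far apart (log2 fold change -2.83 ± 0.78, adjusted p = 0.107, and 2.79e-05 with 12 libraries). Etnppl, which breaks down phosphoethanolamine, lay at 141, 165 and 288 CPM in chow and at 50, 65.6 and 97.0 CPM in CSO (-1.47 ± 0.36, adjusted p = 0.0726 and 7.82e-06). Chka, choline kinase, had a log2 fold change of -1.40 ± 0.41 (adjusted p = 0.183 and 0.0225). Ugt1a9 had one of -1.74 ± 0.78 (adjusted p = 0.848 and 0.0277). Ccn1, a matrix protein that responds to YAP, had one of -1.85 ± 0.55 (adjusted p = 0.203 and 0.00232). The others were Asap2, Adam11, Smad7, Rasgef1b, Dtx4, Shank2 and Cdk12.

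To see where CSO differed from other oils, it was set against the mean of OO and SFO. The chow libraries do not enter this difference itself, but they share its filter, scaling and estimate of the spread, and leaving out 1 of them gave 73 to 86 called genes. It called 87 of 11971 genes (0.727%), 41 higher in CSO (0.342%) and 46 lower (0.384%). With library totals in place of composition scaling the same comparison gave 73 higher and 28 lower. Of the 49 genes called against chow, 12 were called here too. Both comparisons share the 6 CSO libraries, so a like direction is no independent support. Among the 12, Aldh3a2, Fads2, Gpt2 and Por were higher and Camk1d, Clpx, Coq8a, Elovl3, Gldc, Nr1d1 and Slc30a10 lower. Por had a log2 fold change of 1.17 ± 0.16 (adjusted p = 1.56e-05) and Slc30a10 of -2.07 ± 0.31 (adjusted p = 3.56e-05) against the other oils. Fads2 differed from the other oils by 0.54 ± 0.13 (adjusted p = 0.0359). Fads1, which was not among the 12, had a log2 fold change of 0.15 ± 0.12 against them (adjusted p = 0.778). With the clock score as a term 23 genes were called, and leaving out CSO 4, CSO 5 or CSO 6 gave 53, 57 and 56.

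Clearance genes that fell from chow stood in different ways to the other oils. Cyp3a11 had a log2 fold change of -0.04 ± 0.23 against OO and SFO, Gstm1 of -0.05 ± 0.10, Ces2a of 0.04 ± 0.13 and Cyp2c29 of -0.15 ± 0.13 (adjusted p from 0.823 to 0.993). Cyp3a59 had one of -1.39 ± 0.44 (adjusted p = 0.154) and Cyp3a25 one of -0.32 ± 0.14 (adjusted p = 0.412), so the point values of this group were not all near 0. Apoa4 had one of -0.50 ± 0.24 (adjusted p = 0.487) and Csad of 0.30 ± 0.16 (adjusted p = 0.554). A p that misses the threshold does not show that the oils act alike. For the cholesterol list the median against the other oils was -0.04, with none of 21 members called in either direction.

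Of the 57 gene lists, PPARα targets had the most members above the other oils: 10 of 28 were higher in CSO and none lower, with a median of 0.84 against -0.04 over all tested genes. They included Acaa1b, Acot1, Acot4, Aldh3a2, Cyp4a10, Cyp4a14, Pex11a, Retsat and Vnn1. Cyp4a14, a fatty acid ω-hydroxylase, lay at 217, 636 and 888 CPM in CSO, at 3.22, 59.3 and 179.9 CPM in OO and at 3.09, 17.6 and 31.8 CPM in SFO, so that every CSO library lay above every library of the other oils (log2 fold change 4.06 ± 0.58, adjusted p = 0.000662). Chow lay at 284, 356 and 530.1 CPM, inside the CSO range, and the log2 fold change of CSO over chow was 0.69 ± 0.65 (adjusted p = 1.0). Pex11a, a peroxisome division protein, showed the same order, with medians of 204 CPM in CSO, 162 in chow, 81.0 in OO and 78.8 in SFO (CSO over the other oils 1.25 ± 0.18, adjusted p = 2.21e-05). Both genes were chosen after their values were seen.

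Below the other oils lay genes of several kinds. Insig2 had a log2 fold change of -1.34 ± 0.21 (adjusted p = 0.000191), Abcb11 of -0.79 ± 0.13 (adjusted p = 0.000133) and Chka of -2.21 ± 0.40 (adjusted p = 0.000667). Atf5, a factor of the stress response, was lower by a log2 fold change of -1.09 ± 0.15 (adjusted p = 1.56e-05). Of 29 acute phase genes 4 were lower than in the other oils, Fga, Fgb, Fgg and Lbp, the first 3 of which encode the chains of fibrinogen. Against chow these 3 had log2 fold changes of -0.01 ± 0.14, 0.08 ± 0.12 and -0.05 ± 0.12 (adjusted p = 1.0 for all).

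**Figure D5:**
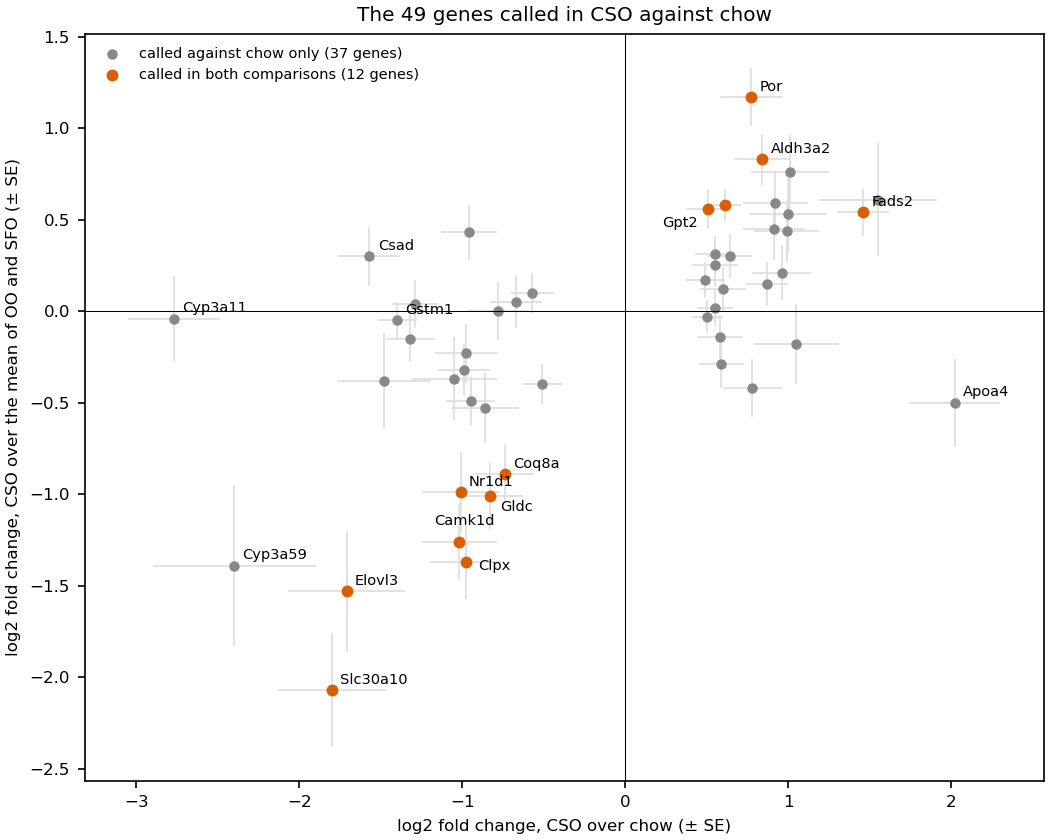
The 49 genes called in CSO against chow, with the log2 fold change of CSO over chow on the x axis and of CSO over the mean of OO and SFO on the y axis; points are fitted values, bars are standard errors, and orange points are the 12 genes called in both comparisons. Cyp3a11 and Gstm1 lie near 0 on the y axis, while Por, Aldh3a2, Slc30a10, Elovl3 and Clpx lie away from 0 on both axes.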

How the data were processed

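The authors deposited raw counts per gene for 23 libraries and, for each oil diet, a table of chow against it with p-values, a test score and log2 fold changes with errors on the log2 scale. Per the submitters' processing notes, Trimmomatic, STAR 2.7.1a, mm39, HTSeq 0.9.1, DESeq2 and DESeq were used; the sources used here do not give the strand setting. SFO_4 is not analysed here, and the labels describe it as an outlier. The table holds 13686 genes.

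Tests ran in edgeR 4.0.16 under R 4.3.3. filterByExpr kept 11971 genes, TMM gave composition factors, and all 23 libraries were fitted with diet as the only term by the robust quasi-likelihood F test, with Benjamini-Hochberg adjustment over all tested genes and a threshold of 0.05. Alternatives were the 12 CSO and chow libraries alone, DESeq2 1.42.0, limma 3.58.1 (voom), other scalings and filters, a replicate block, covariates, and libraries left out. The procedure was also run on counts simulated with spreads fitted to these data, which cannot show whether the model suits them. Figures used Python 3.11.15 and matplotlib 3.10.9. The authors' deposited table held 98 genes that passed, among them all 49 called here, in the same direction once its sign was turned.

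The members, the 57 gene lists and the rule for naming genes were chosen with earlier results of these data known. Named were all called genes, the member with the smallest p of each list, 15 lipid genes, and the 12 largest rises and falls among genes called only with the 12 libraries (mean log2 CPM of at least 3). Any other gene was named after its values were seen. Some genes that met the rule are not reported here. Promoters are RefSeq's, build GRCm38.p6, which is not the build of the counts: 42 of the 49 called genes matched by symbol.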

Additional observations from a re-analysis of the deposited data

Results flagged for a closer look

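The highest or lowest library stood far from the other 5 of its group in 13 of 224 groups checked (Dixon's criterion, which chance meets in about 1 in 20 groups). Among called genes these were Acsl4 in Chow 6 (110.4 CPM), Camk1d in Chow 5 (65.3 CPM), Cyp2c68 in CSO 5 (121 CPM), Cyp3a59 in Chow 3 (8.88 CPM), Larp4b in Chow 1 (346 CPM), Serpina3n in Chow 4 (166 CPM) and Ugdh in CSO 3 (112 CPM). The others were Srebf1 (93.7 CPM), Cyp7a1 (68.1 CPM) and Ugt1a9 (30.8 CPM) in Chow 1, Dio1 in Chow 6 (87.5 CPM), Nmi in Chow 3 (4.14 CPM) and Hccs in CSO 5 (33.0 CPM).

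Of the genes called against chow, 12 also differed between CSO and the mean of the other oils when that difference was tested itself. For the 11 given here, the log2 fold changes of CSO over the other oils were 0.83 for Aldh3a2, 0.54 for Fads2, 0.56 for Gpt2 and 1.17 for Por. They were -1.26 for Camk1d, -1.37 for Clpx, -0.89 for Coq8a, -1.53 for Elovl3, -1.01 for Gldc, -0.99 for Nr1d1 and -2.07 for Slc30a10.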

How the results depend on the processing

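Against the 49 genes called in CSO against chow, DESeq2's Wald test called 111, limma voom 206, the 12 CSO and chow libraries 198, and the same 12 with a replicate block 214. Without the 4 libraries with muscle transcripts 14 were called with the other diets and 101 with CSO and chow alone, with the muscle marker level as a covariate 28 (26 of the 49), and with the clock score 23. Leaving out 1 library at a time gave 22 to 45. The other scalings and filters gave 46 to 56. For CSO against the other oils (87 genes) DESeq2 called 196, voom 171, the fit without the 4 libraries 42 and the fit with the clock score 23, and leaving out 1 library gave 53 to 116. No called gene changed sign under any of the settings run for CSO against chow. Same-numbered chow and CSO libraries did not deviate together (correlations from -0.10 to 0.02, and 0 of 6 chow libraries matched their own number best), so the replicate block, which called 52 genes, 45 of them among the 49, is only a number shared by the samples.

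Sign changes were seen in genes that did not pass, and the cause was not tested. Acaca (0.02) became -0.02 with library totals, -0.06 with voom, -0.40 with the clock score and -0.02 with 12 libraries and the replicate block, and ran from -0.09 to 0.11 with 1 library left out. Angptl4 (-0.12) became 0.15 without the 4 libraries, 0.14 without them and with CSO and chow alone, 0.03 with the muscle covariate and 0.05 with the clock score, and ran from -0.35 to 0.05 with 1 left out. Cd79b (0.06) became -0.04 with library totals, -0.81 with voom, -1.14 with the replicate block and -0.07 with the muscle covariate, and ran from -0.76 to 0.46. Csf3r (-0.22) became 0.17 without the 4 libraries in both fits and 0.15 with the clock score, and ran from -0.51 to 0.20. Cyp7a1 (0.03) became -0.09 and -0.10 without the 4 libraries and -0.90 with the clock score, and ran from -0.15 to 0.14. Fgf21 (-0.39) became 0.90 with voom, 0.02 and 0.01 without the 4 libraries, 0.01 with the muscle covariate and 0.29 with 12 libraries and the replicate block, and ran from -0.65 to 0.01. At these depths genes under a mean log2 CPM of 4.74 were not called in CSO against chow with all libraries, whatever their fold change.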
